A study of Mus musculus with 20 samples.

Results

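The apolipoproteins described here are 10 protein genes of plasma lipoproteins, namely Apoa1, Apoa2, Apoa4, Apoa5, Apob, Apoc1, Apoc2, Apoc3, Apoe and Apom. They were taken by gene name from a table of 55401 genes, in which each name occurred in 1 row. RNA of 5 tissues (liver, small intestine, kidney, spleen and heart) was sequenced from wild-type (WT) and Nsun6-KO mice, with 2 libraries for each tissue and genotype and 20 in all. The mice were female and 8 weeks old. The KO came from C57BL/6J eggs in which Cas9 and a pair of guide RNAs removed exon 3 and exon 4 of Nsun6, an RNA cytosine methyltransferase gene. The deletion is not restricted to a cell type, and no other allele or agent was named for either group. The study describes the 2 libraries of each group as biological replicates. The labels do not say which libraries came from the same animal, so p-values measure the spread between these libraries, which may in part be technical.

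Apolipoproteins coat the lipid particles of the blood. Hepatocytes release very low density lipoprotein and much of the high density lipoprotein, whereas enterocytes of the small intestine release chylomicrons after a meal. Apob is the large protein on which both kinds of triglyceride-rich particle are built, and the smaller apolipoproteins exchange between particles, steer the lipases of the vessel wall or bind the receptors that take remnants up.

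Of the 10 genes, 7 lie in 2 clusters (GRCm38, the build of the counts). Apoa1, Apoc3, Apoa4 and Apoa5 span 43.3 kb of chromosome 9, from 46228580 to 46271919, and 25.2 kb separate Apoa4 from Apoa5. Apoc2, Apoc1 and Apoe span 27.6 kb of chromosome 7, from 19671579 to 19699188. Apob lies on chromosome 12 from 7977648 to 8016835 and has 13934 exon bases, the most of the set. Apoa2 lies on chromosome 1 from 171225054 to 171226379 and has 537 exon bases, the fewest, and Apom lies on chromosome 17 from 35128997 to 35132050.
Exons of 3 members overlap other genes. Apoc2 shares 646 of its 813 exon bases (79.5%) with Gm44805 on the same strand, which had 0 counts in every library. Apoa4 shares 634 of 1815 exon bases with the antisense gene Gm47528 and 632 with the antisense gene Gm10680. Apoa5 shares 524 of 2522 exon bases with the antisense gene Gm47544. Reads on shared bases may have been left uncounted, so that levels of these 3 genes may be too low, and per-length comparisons of them with other genes are uncertain.

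The stretch upstream of the start is shown for Apoa1, Apoa4 and Apob, which were abundant in the small intestine, and for Apoa5 and Apoa2, which were far lower there than in the liver. RefSeq start sites (GRCm38.p6) were found for 8 of the 10 genes, and only bases before the first exon base of the count annotation are printed. Capitals mark matches, on either strand of the 250 bases before the start, to CAAAGNNCA, a relaxed form of the HNF4 binding sequence, or to TATAAA, the TATA box.
Apoa1 (chr9:46228380-46228579, plus strand): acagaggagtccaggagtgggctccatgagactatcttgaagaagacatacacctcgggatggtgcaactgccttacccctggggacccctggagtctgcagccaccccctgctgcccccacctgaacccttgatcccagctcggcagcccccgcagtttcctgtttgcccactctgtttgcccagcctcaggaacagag
Apoa4 (chr9:46240594-46240695, plus strand): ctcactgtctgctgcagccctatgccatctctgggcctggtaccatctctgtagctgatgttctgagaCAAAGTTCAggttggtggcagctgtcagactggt
Apob (chr12:7977427-7977647, plus strand): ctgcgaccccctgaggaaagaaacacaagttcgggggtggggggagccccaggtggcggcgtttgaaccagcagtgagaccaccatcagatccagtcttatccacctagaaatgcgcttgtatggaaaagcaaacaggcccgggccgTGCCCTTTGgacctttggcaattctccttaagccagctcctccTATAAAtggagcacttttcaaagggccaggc
Apoa5 (chr9:46268383-46268632, plus strand): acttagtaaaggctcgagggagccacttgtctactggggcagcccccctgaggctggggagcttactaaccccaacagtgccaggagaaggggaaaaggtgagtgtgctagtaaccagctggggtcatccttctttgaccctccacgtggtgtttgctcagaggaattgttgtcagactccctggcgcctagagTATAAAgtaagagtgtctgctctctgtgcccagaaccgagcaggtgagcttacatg
Apoa2 (chr1:171224804-171225053, plus strand): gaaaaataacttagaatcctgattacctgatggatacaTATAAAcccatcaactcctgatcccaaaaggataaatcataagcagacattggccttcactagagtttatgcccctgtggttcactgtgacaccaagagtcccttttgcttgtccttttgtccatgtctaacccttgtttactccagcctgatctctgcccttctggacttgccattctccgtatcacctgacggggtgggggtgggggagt
The window of Apoa1, the member with the highest TPM in the small intestine, held none of the motifs searched. The CAAAGNNCA letters occurred in the windows of Apoa4 and Apob and in 5.49% of 32851 promoter windows of that length. TATAAA occurred in those of Apob, Apoa5 and Apoa2 and in 12.4% of all windows. GTTAAT, the letters of an HNF1 half-site, occurred in the Apoc2 window and in 6.43% of all. A match is a description of the letters only, and these motifs were chosen after the sequences were seen.

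The libraries held 15897446 to 44508197 counts (median 28513950). Levels per library are given as CPM, or counts scaled to a fixed library size after TMM normalization, on 1 scale for all libraries, and levels of different genes were compared in TPM, which also divides by exon length. Nsun6 itself was counted in every library, with 80 to 338 counts, and its KO minus WT log2 difference lay between -0.67 and 0.080 in the 5 tissues (edgeR adjusted p 0.999 or more). A count over the whole gene does not check the loss of 2 exons. The study reports PCR for the genotype and Western blots of liver, spleen and heart for the loss of the protein.
The tissue labels matched the tissue markers. The 16 hepatocyte markers summed to 185438 to 285253 TPM in the liver, the 9 enterocyte markers to 24713 TPM or more in the small intestine, the 9 kidney tubule markers to 89547 to 141027 TPM in the kidney, the 6 cardiomyocyte markers to 62475 TPM or more in the heart, and the 6 B cell markers to 3016 to 5219 TPM in the spleen.
Libraries stood apart in every tissue. Spleen WT replicate 2 held 7017 TPM of hepatocyte markers, with 102807 counts of the albumin gene Alb, against 165 TPM in WT replicate 1 and 401 and 485 TPM in KO. Spleen KO replicate 1 held 189 TPM of kidney tubule markers, led by Kap, against 3.67 to 21.4 TPM in the other spleen libraries, and 39 TPM of distal gut markers, led by Fabp6, against 0.891 to 18.4 TPM. Liver WT replicate 1 had the lowest hepatocyte sum of the liver, and its median hepatocyte marker stood at 66.3% of the mean liver level, against 105 to 116% in the other 3. Small intestine replicates differed in markers of gut position, as given below, WT replicate 1 held 339 TPM of B cell markers and KO replicate 1 held 494 TPM of cardiomyocyte markers. Heart WT replicate 2 held 541 TPM of adipocyte markers against 4.7 TPM in WT replicate 1, and 35.6 TPM of B cell markers, the most of the heart. Heart KO replicate 1 held 168 TPM of atrial markers against 1358 TPM or more in the others. Kidney KO replicate 2 held 1.72 TPM of adipocyte markers against 90.4 TPM or more in the others, and the kidney WT pair had r = 0.936 across genes (log2 CPM), the lowest pair outside the small intestine. Kidney WT replicate 2 was far lower than the other kidney libraries in some tubule markers. It had 12526 counts of Slc34a1 against 42631 to 145807, and 5446 of Slc12a3 against 46130 to 126023, with Slc5a2 and Aqp2 also lowest there. Umod, Slc27a2 and Kap were not lowest there, and Kap made up most of the summed tubule TPM.

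In the liver the 10 genes made up 7.06 to 7.55% of all TPM, and in the small intestine 0.986 to 3.36%. In the other 3 tissues their share was 0.0479 to 0.343%, the highest being spleen WT replicate 2. Per length, Apoa2, a main protein of high density lipoprotein, led in the liver with 36434 ± 2139 TPM (SD, n = 4, both genotypes). Apoa1, the chief protein of high density lipoprotein, followed with 13631 ± 3644 TPM. Next came Apoc1 with 9113 ± 3091, Apoe with 8343 ± 2197 and Apoc3 with 3483 ± 387 TPM, and the other members were lower.
In the small intestine Apoa1 led with 16851 ± 7503 TPM, followed by Apoa4 with 1151 ± 1468 and Apob with 857 ± 163 TPM. Counted per exon base that no other gene covers, a measure chosen after seeing the data, Apoa4 stood at 3805 ± 4855 TPM and kept its rank. Apoe led in the spleen, kidney and heart, with 908 ± 157, 446 ± 92.7 and 563 ± 121 TPM.

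**Figure D1:**
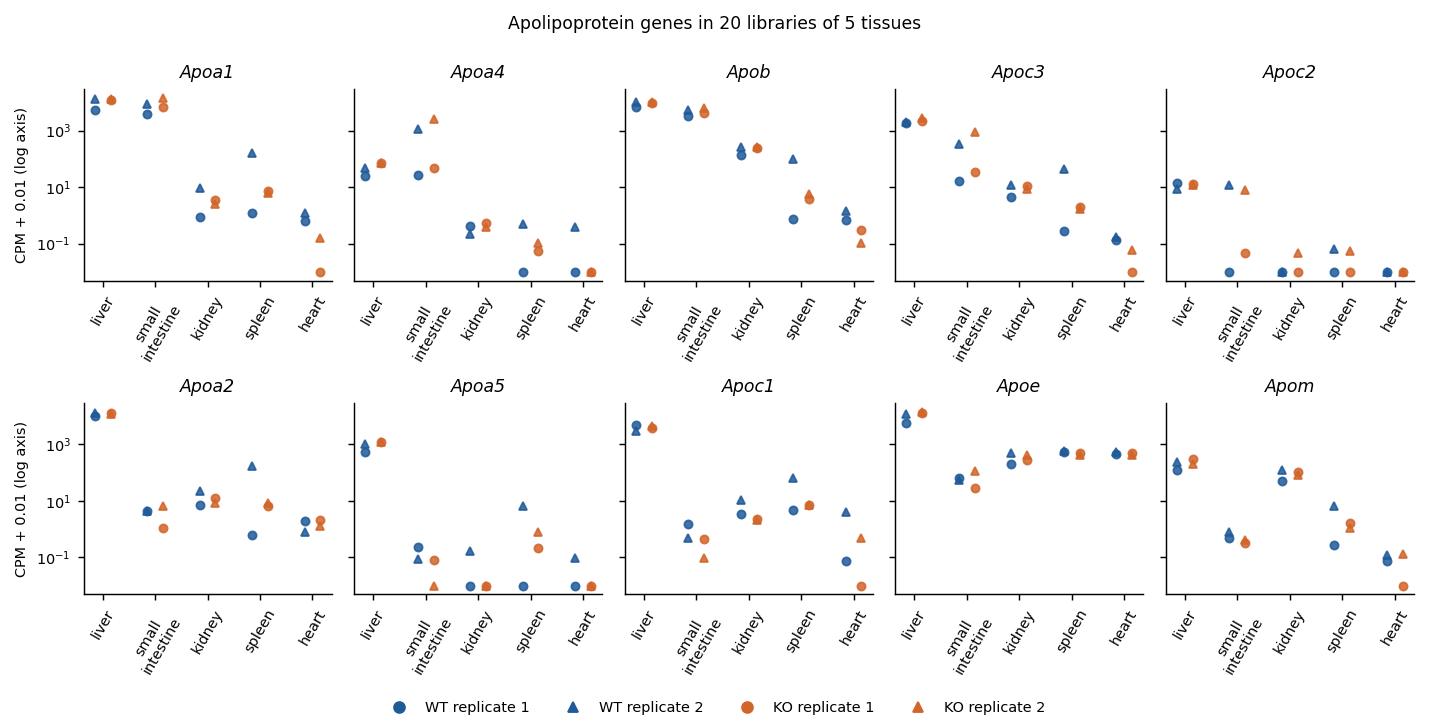
CPM plus 0.01 on a log axis for each of the 10 genes, 1 point per library, by tissue, genotype (colour) and replicate number (shape). Apoa1 and Apob are high in liver and small intestine, Apoa2, Apoa5 and Apoc1 in the liver, Apom in liver and kidney, and Apoe is above 200 CPM in every liver, spleen, kidney and heart library.

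The liver was compared with each other tissue in 1 fit of all 20 libraries, averaged over genotypes. A gene was called when the Benjamini-Hochberg adjusted p of edgeR's quasi-likelihood test lay below 0.1 and its fold change exceeded 2. Against the small intestine 6 of the 10 genes were called higher in the liver and 1 lower, where 19.3% and 27% of all 23159 genes tested were. Their median log2 fold change was 5.16, against -0.19 for all genes. Against the kidney 9 were higher and 0 lower (13.6% of all genes higher and 21.1% lower), with a median of 8.95. All 10 were higher than in the spleen (22.5% of all genes higher and 29.7% lower) and than in the heart (19.8% higher and 24.8% lower), with medians of 8.703 and 12.66. Some members were too low in a tissue's own libraries to pass a low-count filter there and entered the fit through other tissues. These were Apoa5 in the intestine, Apoa5 and Apoc2 in the kidney and Apoa4 and Apoc2 in the spleen. In the heart they were Apoa4, Apoa5, Apoc2, Apoc3 and Apom. Such genes had to differ from the liver, and their place in these counts and medians is a description only. Other pairs of tissues were compared in the same fit to order the levels, and of all genes 50.5% were called between spleen and kidney, 45.7% between small intestine and kidney, 49.5% between small intestine and spleen, 52.6% between spleen and heart and 38% between kidney and heart. In bulk tissue, fewer cells of a type and less RNA per cell cannot be told apart.

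**Figure D2:**
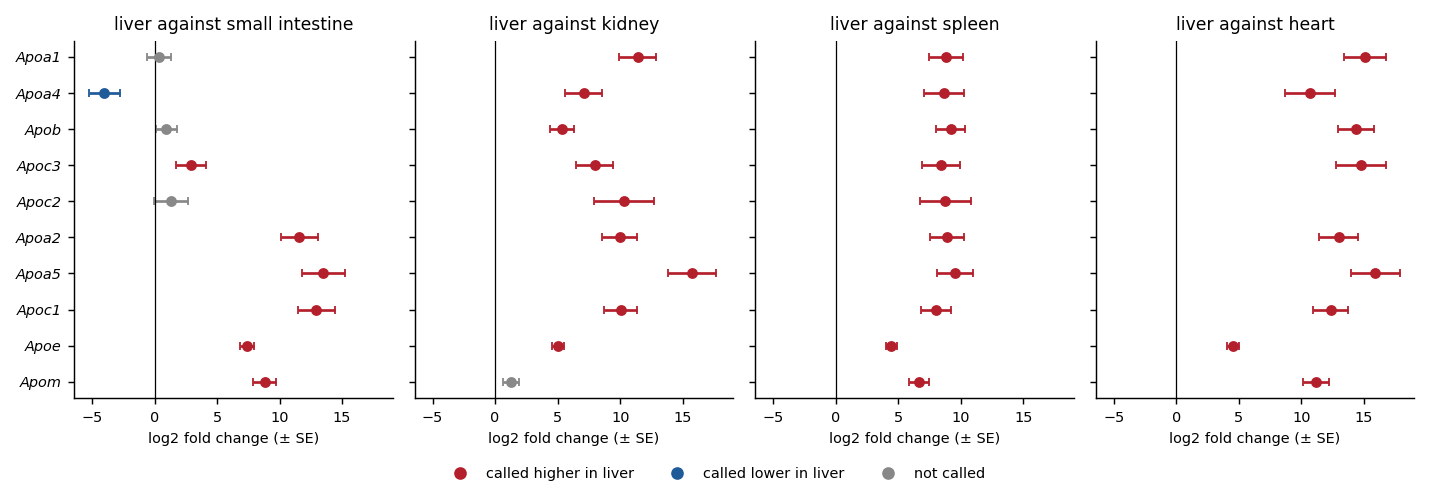
Log2 fold change of liver over small intestine, kidney, spleen and heart from edgeR, with a standard error derived from its F statistic, for each gene, coloured by whether it was called. Apoa4 is the 1 gene called lower in the liver, at -4.03 against the small intestine, and Apoc2 is not drawn for the heart, where it had 0 counts.

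Apoa4, a protein of chylomicrons, was the 1 member whose mean CPM was highest in the small intestine, and per length Apoa1 also had a higher mean there than in the liver. In the intestine Apoa4 stood at 27.8 and 1097 CPM in WT and 48.2 and 2462 CPM in KO, replicate 1 before replicate 2. In the liver it stood at 25.1 and 49.1 CPM in WT and 72.7 and 70.7 CPM in KO. Both intestine replicate 2 libraries were far above the liver, and both replicate 1 libraries lay within its range. The liver was 16.3-fold lower (log2 fold change -4.03, SE 1.25, edgeR adjusted p = 0.0182). The call rests on both replicate 2 libraries of the intestine, with -1.92 when the WT one was left out (edgeR adjusted p = 0.163) and -1.695 when the KO one was (edgeR adjusted p = 0.204). The antisense gene Gm47528 was high in the same libraries, at 4385 counts for WT and 2257 for KO in replicate 2 against 57 and 68 in replicate 1, and reads of the pair cannot be told apart where they overlap.
Apoa1 was abundant in both organs. It stood at 3979 and 8846 CPM in WT and 6733 and 14331 CPM in KO intestine and at 5128 and 13245 CPM in WT and 11961 and 12581 CPM in KO liver. The organs overlapped and the difference did not pass (log2 fold change 0.37, SE 0.95, edgeR adjusted p = 0.81). On total counts it was -0.202 and with limma on log2(TPM + 0.1) -0.25, so no direction can be given.
Apob ranged from 3356 to 6382 CPM in the intestine and from 6886 to 10483 CPM in the liver. Every liver library was above every intestine library in CPM but not in TPM, and the difference did not pass (log2 fold change 0.95, SE 0.82, edgeR adjusted p = 0.369).
Apoc3, which slows lipoprotein lipase and remnant uptake, stood at 16.1 and 334 CPM in WT and 34.3 and 916 CPM in KO intestine and at 1809 and 2030.3 CPM in WT and 2254 and 2677 CPM in KO liver. All liver libraries were higher (log2 fold change 2.92, SE 1.199, edgeR adjusted p = 0.0594), and the call ended in 6 of the 8 fits that left out 1 library, namely any liver library or either replicate 1 library of the intestine, at a log2 fold change of 2.44 to 2.93 and with edgeR adjusted p up to 0.157. Apoc2, the cofactor of lipoprotein lipase, read 0 and 291 counts in WT and 1 and 194 counts in KO intestine, against 353 and 156 counts in WT and 273 and 320 counts in KO liver. The organs overlapped (log2 fold change 1.296, SE 1.36, edgeR adjusted p = 0.474), and the call depends on the setting. Apoc2 was called higher in the liver without intestine WT replicate 2 (6.498, edgeR adjusted p = 0.0223) or KO replicate 2 (4.59, edgeR adjusted p = 0.069), with no filter on low counts (1.31, edgeR adjusted p = 0.0215) and with limma on log2(TPM + 0.1) (3.53, adjusted p = 0.0906).

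The other 5 genes were low in the small intestine. Apoa5, which promotes the action of lipoprotein lipase, had 0 to 8 counts per intestine library and 13742 to 32288 counts per liver library (log2 fold change 13.49, SE 1.71, edgeR adjusted p = 6.08e-05). As it passed the low-count filter through other tissues alone, Apoa5 had to differ here, and its test is a description only. It lies 25.2 kb from Apoa4, whose order of these organs was the reverse. Apoc1, a small protein that hinders remnant uptake, had 2 to 52 counts in the intestine and 56684 to 126597 in the liver (log2 fold change 12.94, SE 1.45, edgeR adjusted p = 8.80e-06).
Apoa2 stood at 1.09 to 6.35 CPM in the intestine and 10461 to 13119.8 CPM in the liver (log2 fold change 11.56, SE 1.47, edgeR adjusted p = 2.34e-05). Apom, a carrier of sphingosine 1-phosphate on high density lipoprotein, stood at 0.326 to 0.794 CPM in the intestine and 119.6 to 317 CPM in the liver (log2 fold change 8.797, SE 0.89, edgeR adjusted p = 3.21e-06). For these 4 genes no intestine library came near a liver library.
Apoe, a ligand of the low density lipoprotein receptor family that macrophages also make, was lowest in the intestine among the 5 tissues. It stood there at 63.8 and 56.1 CPM in WT and 29.4 and 113 CPM in KO, and in the liver at 5616 and 12032 CPM in WT and 13308 and 14415 CPM in KO (log2 fold change 7.403, SE 0.53, edgeR adjusted p = 6.35e-08). The 12 macrophage markers, led by Lyz2, summed to 423 and 221 TPM in WT and 104 and 392 TPM in KO intestine. KO replicate 1 was lowest in both Apoe and this sum, and the part of macrophages in the Apoe level was not tested.

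Within the small intestine, replicate 2 was compared with replicate 1 across both genotypes. The labels give no gut segment. The 9 proximal markers summed to 464 TPM in WT replicate 1 and 1998 TPM in KO replicate 1, against 42371 and 48284 TPM in the replicate 2 libraries. The 7 distal markers, led by the bile acid binder Fabp6, summed to 43396 and 42720.4 TPM in replicate 1 and 366 and 352 TPM in replicate 2. Replicate number and gut position cannot be told apart.
Of the 9 members tested, 3 were higher in replicate 2 and 0 lower, where 4.52% and 3.11% of 17680 genes were. Apoa4 was 45.6-fold higher (log2 fold change 5.51, SE 0.32, edgeR adjusted p = 0.0126), with a log2 ratio of 5.297 in WT and 5.67 in KO. Apoc3, its neighbour on chromosome 9, was 23.9-fold higher (log2 fold change 4.58, SE 0.26, edgeR adjusted p = 0.0126), with 4.37 in WT and 4.73 in KO. Both genotypes thus showed both differences at a like size. Apoc2 had 0 and 1 counts in replicate 1 and 291 and 194 in replicate 2. It passed the low-count filter through replicate 2 alone and so had to differ, and its place among the 3 is a description only.
Apoa1, 2.47 kb from Apoc3 in the same cluster, was 2.21-fold higher and did not pass (log2 fold change 1.14, SE 0.34, edgeR adjusted p = 0.171), but DESeq2 called it (adjusted p = 0.000644). Apob was 1.57-fold higher and did not pass (log2 fold change 0.66, SE 0.31, edgeR adjusted p = 0.319). The difference in response between these genes was not tested. The Apoc3 call ended whenever 1 library was left out, at a log2 fold change of 4.35 to 4.79 (edgeR adjusted p = 0.334 to 0.407). With limma on log2(TPM + 0.1), 0 members were called, at 5.15 for Apoa4 and 4.22 for Apoc3 (adjusted p = 0.185 for each). No share of all genes is given for limma here, so nothing is read from that count. Apoe, Apoa2, Apoc1 and Apom did not pass, and Apoa5 was too low to be tested.

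**Figure D3:**
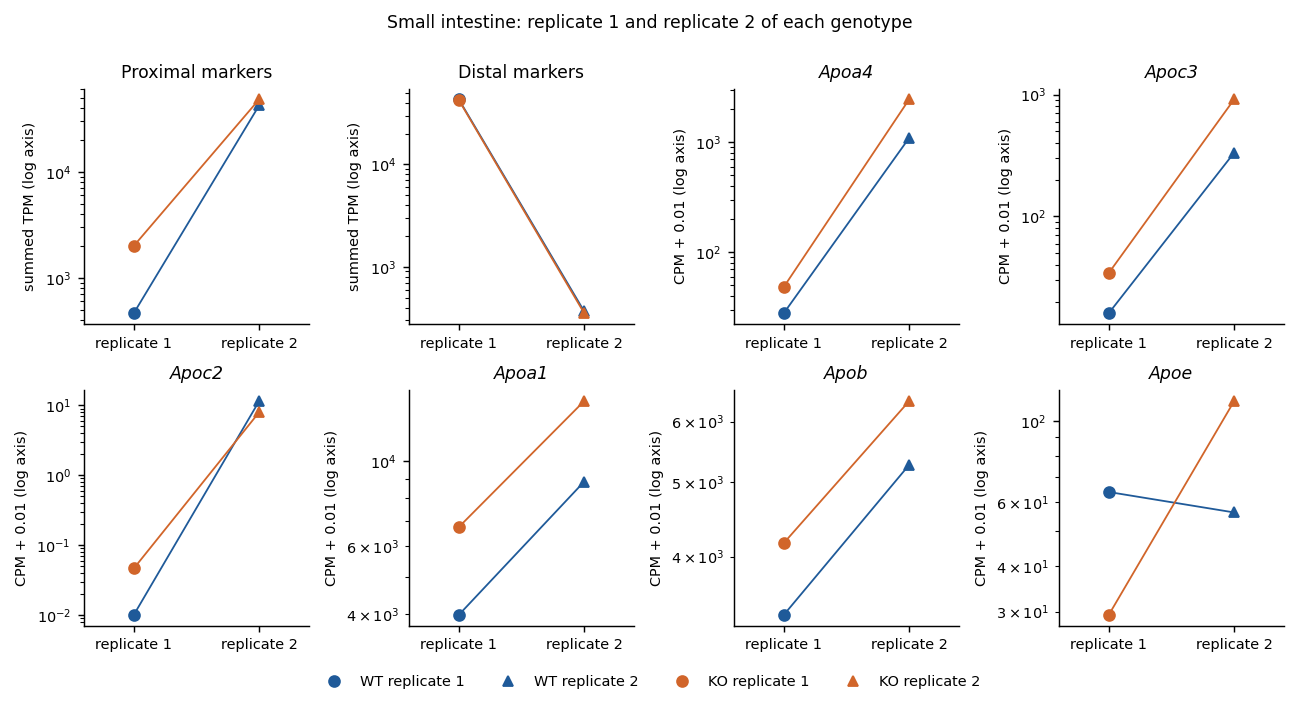
Small intestine libraries, replicate 1 and replicate 2 joined by a line for WT and KO, on log axes, with summed TPM for the marker lists and CPM for the genes. Proximal markers, Apoa4, Apoc3 and Apoc2 are far higher in replicate 2, distal markers far lower, and Apoa1 and Apob differ by 2.21-fold and 1.57-fold.

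In the kidney, Apom, Apoe and Apob stood highest relative to the liver. Apom stood at 49.5 and 122 CPM in WT and 102 and 82.3 CPM in KO kidney, against 119.6 and 244 CPM in WT and 317 and 203 CPM in KO liver. The ranges overlapped and the difference did not pass (log2 fold change 1.29, SE 0.62, edgeR adjusted p = 0.129). It passed in a fit of these 2 tissues alone (1.22, edgeR adjusted p = 0.0203) and with no filter on low counts (1.25, edgeR adjusted p = 0.000158). Kidney was above the spleen, the next tissue for Apom, by 5.36 on the log2 scale (edgeR adjusted p = 4.92e-05). Without spleen WT replicate 2, spleen minus kidney was -7.22.
Apob stood at 132 and 266 CPM in WT and 243 and 262 CPM in KO kidney, and the liver was 41.1-fold higher (log2 fold change 5.36, SE 0.98, edgeR adjusted p = 0.000607). Its kidney level was above that of the spleen by 3.84 and below that of the small intestine by 4.41 on the log2 scale (edgeR adjusted p = 0.00278 and 0.00152). Without spleen WT replicate 2 spleen minus kidney was -6.94 for Apob. Hepatocyte markers summed to 200.4 and 425 TPM in WT and 261 and 214 TPM in KO kidney. In percent of the liver level, the median marker stood at 0.0307 to 0.0757%, whereas Apob stood at 1.43 to 2.88%, Apoe at 1.78 to 4.28% and Apom at 22.4 to 55.5%, all above the median marker in every library. Single markers reached further, and in WT replicate 2 Cyp2e1, the most abundant of them in the kidney, stood at 3.02%, above Apob in that library. Apoa1, at 0.00779 to 0.0868%, and Apoa2, at 0.0595 to 0.181%, were nearer to the marker level. In CPM 8 of the 10 members were highest in WT replicate 2, the kidney library with the highest hepatocyte sum and median marker, but in TPM only Apoa1, Apoa2, Apoa5 and Apoc1 were. The part of liver RNA in them was not tested.

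In the spleen, Apoe varied little between libraries, with 525 and 589.9 CPM in WT and 501 and 418 CPM in KO, and the liver was 21.8-fold higher (log2 fold change 4.45, SE 0.46, edgeR adjusted p = 2.19e-06). Macrophage markers summed to 5348 to 6478 TPM in the spleen and 907 to 1018 TPM in the liver. In the order of Apoe levels spleen and heart were neighbours with a log2 difference of 0.075 (edgeR adjusted p = 0.923), heart stood 0.48 above kidney (edgeR adjusted p = 0.379), and neither difference passed, while kidney was above the small intestine by 2.397 (edgeR adjusted p = 0.00033).
For most other members the spleen level rests on WT replicate 2. Apoa1 stood at 160.3 CPM there, against 1.21 CPM in WT replicate 1 and 7.55 and 6.07 CPM in KO. Apob stood at 99.2 CPM there, against 0.709 CPM in WT replicate 1 and 3.89 and 5.86 CPM in KO. In percent of the liver level, the median hepatocyte marker in that library was at 1.24%, with Apoa1 at 1.49%, Apoa2 at 1.44%, Apob at 1.08% and Apoc1 at 1.57%. Apom at 3.01% and Apoc2 at 0.442% lay further from the median marker there. In the other 3 libraries the marker median was 0.00464 to 0.0743%, with Apoa1 at 0.0113 to 0.0704% and Apob at 0.00769 to 0.0636%. Apoc1 was above the median marker in each of these 3, at 0.115 to 0.175%. For Apoa1, Apoa2, Apob and the marker median alike, WT replicate 2 was the highest and WT replicate 1 the lowest library, whereas Apoe was at 3.69 to 5.2% in all 4. The part of liver RNA in these values was not tested. Apom stood at 0.268 and 6.63 CPM in WT and 1.66 and 1.06 CPM in KO spleen, highest in WT replicate 2 and next in KO replicate 1, the library with the most kidney tubule marker TPM, whose part was not tested.
Without this library all 10 members were still called higher in liver than in spleen, and the log2 fold changes of Apoa1, Apoa2 and Apob went from 8.82, 8.91 and 9.203 to 11.87, 12.52 and 12.28. The place of the spleen in the order of tissues changed. With all libraries Apoa1 was called higher in spleen than in kidney (log2 2.57), and without this library it was not (-0.49, edgeR adjusted p = 0.622). Apoa2 turned from no call (1.05) to a lower spleen level (-2.58, edgeR adjusted p = 0.00449). Apoc3 turned from no call (-0.47) to a lower spleen level (-3.66, edgeR adjusted p = 0.0225). Apoc1 lost its call of spleen over kidney (2.01 to 0.54, edgeR adjusted p = 0.64) and kept that of spleen over small intestine (3.47, edgeR adjusted p = 0.00685), and Apoa5 also lost its call over kidney. Apoa2, Apoa5 and Apom lost their calls of spleen over small intestine, with -0.94, -0.89 and 0.32. Against the heart, Apoa2 and Apoa5 lost theirs, with 0.46 and 1.52.

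**Figure D4:**
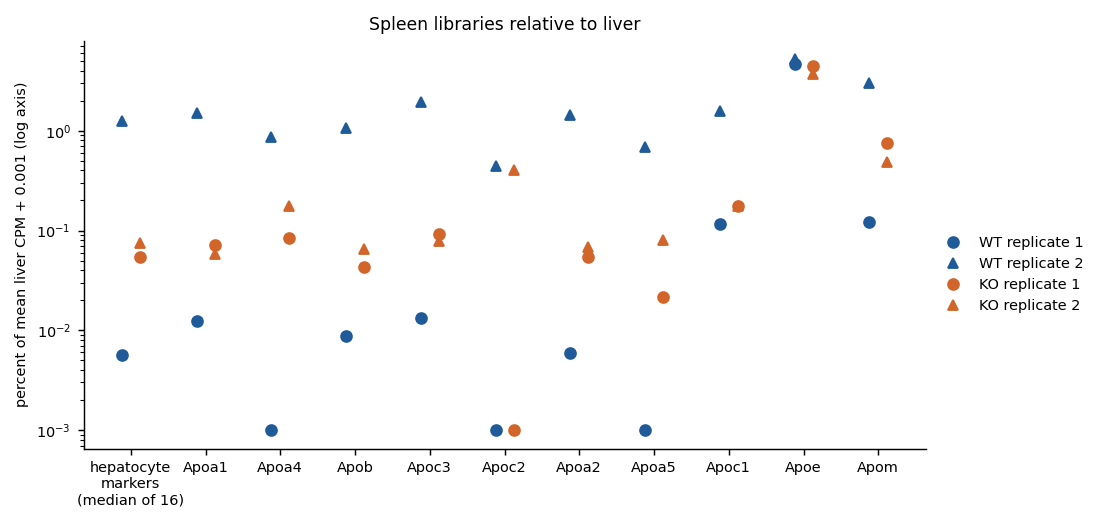
Each spleen library in percent of the mean liver CPM, on a log axis with a small constant added so that values of 0 are drawn, for the median of 16 hepatocyte markers and the 10 genes. WT replicate 2 is at 1.24% for the markers and near that for Apoa1, Apoa2, Apob and Apoc1, the other libraries are far lower for these, and all 4 libraries are at 3.69 to 5.2% for Apoe.

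In the heart, Apoe stood at 453 and 551 CPM in WT and 501 and 419.6 CPM in KO, with overlapping genotypes, and the liver was 23-fold higher (log2 fold change 4.52, SE 0.47, edgeR adjusted p = 1.95e-06). Each other member was under 4 CPM in every heart library. Apoc2 had 0 counts and Apoa5 0 to 3 counts per library. Apoc1 was highest in WT replicate 2, with 3.96 CPM against 0.474 CPM or less in the others. That library also had the highest sum of 6 adipocyte markers, 541 TPM, led by Cfd, and of 4 atrial markers, 3916 TPM, led by Myl7. Their part in the Apoc1 level was not tested. Without that library all 10 members were still called higher in liver than in heart, and Apoc1 went from 12.34 to 14.92.

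For each member the other genes with the most alike pattern were found by Pearson's r of log2 CPM over the 20 libraries, among 23159 genes. The libraries fall into 5 tissues, so each r is a description of few independent points. Apoa5 ran with Plg, the plasminogen gene (r = 0.995), Apoa2 with Cyp2c50 (r = 0.988) and Apom ran with Hgd (r = 0.985). Apoa4 ran with Gstm3 (r = 0.983), Gimd1 (r = 0.98) and Mttp (r = 0.962). Apob ran with Hsd17b2 (r = 0.986), Apoc3 with Ugt2b5 (r = 0.985), Apoa1 with Cyp3a25 (r = 0.978), Apoe with Pid1 (r = 0.977), Apoc1 with AI182371 (r = 0.968) and Apoc2 with Gm36419 (r = 0.983).
Among the members, Apoa4 had r = 0.922 with Apoa1 and 0.426 with Apoa5. Apoa2 and Apoa5 had r = 0.963, Apob and Apoc3 r = 0.94, and Apoe and Apoa4 r = 0.0361.

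Genes that act with the apolipoproteins were followed as 6 lists, of each of which genes among the 3 with the highest mean TPM in any tissue are named. As with the members, listed genes with few counts in a tissue passed the low-count filter through other tissues, and their calls there are a description only. Of 9 other apolipoproteins, 7 were higher in liver than in small intestine and 1 lower, where 19.3% and 27% of all genes were. Apoh, which binds phospholipids, was higher by 10.68 on the log2 scale (SE 1.59, edgeR adjusted p = 0.000106), Apof by 13.73 and Apoc4 by 11.95.
Of 10 lipases and plasma lipid enzymes, 9 were higher in liver than in intestine and 0 lower, where 19.3% and 27% of all genes were. Pon1, a paraoxonase of high density lipoprotein, was higher by 12.77 (SE 1.61). Lpl, the lipase that Apoc2 activates, had its highest level in the heart, with 1707 TPM against 8.56 TPM in the liver (log2 fold change -7.16, SE 0.85, edgeR adjusted p = 8.33e-06).
Of 14 genes for lipoprotein assembly and Apob mRNA editing, 0 were higher and 6 lower in the liver than in the intestine. Of all genes 19.3% were higher and 27% lower, and the medians were -0.74 for the list and -0.19 for all genes. Mttp, which loads lipid onto Apob, had 852 TPM in the intestine and 90.3 TPM in the liver (log2 fold change -2.68, SE 0.56, edgeR adjusted p = 0.00109). Dgat1, an enzyme of triglyceride synthesis, had 731 and 15.7 TPM (log2 fold change -4.96, SE 0.38, edgeR adjusted p = 1.12e-07). P4hb, the partner subunit of Mttp, did not pass (log2 fold change -0.65, SE 0.42, edgeR adjusted p = 0.222). Against kidney, spleen and heart, 9, 11 and 10 of the 14 were higher in the liver, where 13.6%, 22.5% and 19.8% of all genes were. Another of the 14 was called lower in the liver than in the kidney (log2 fold change -5.01, SE 0.398, edgeR adjusted p = 3.07e-07). In intestine replicate 2, 7 of the 14 were higher than in replicate 1 and 1 lower, where 4.52% and 3.11% of all genes were. Among the higher were Mttp (log2 fold change 2.51, SE 0.32, edgeR adjusted p = 0.0407) and P4hb (log2 fold change 1.96, SE 0.31, edgeR adjusted p = 0.0609), while Dgat1 did not pass (log2 fold change 1.098, SE 0.32, edgeR adjusted p = 0.163).
Of 17 receptor and uptake genes, 5 were higher and 5 lower in liver than in intestine, where 19.3% and 27% of all genes were. Cd36, a fatty acid transporter, had its highest level in the heart (2677 TPM), as did Vldlr (172 TPM), and Lrp2, or megalin, had its in the kidney (371 TPM), where the liver was lower by 12.69 on the log2 scale (SE 0.76). Of 4 export genes, Abcg5 and Abcg8, which form a sterol pump, did not pass between liver and intestine (-0.79, SE 0.81, and -0.62, SE 0.56), and Abca1 was higher in the liver by 3.91 (SE 0.24).
Of 18 regulators, 8 were higher and 3 lower in the liver than in the intestine, where 19.3% and 27% of all genes were. Hnf4a had 313 TPM in the intestine, 217 in the liver and 269 in the kidney (liver over intestine log2 fold change 0.18, SE 0.64, edgeR adjusted p = 0.886). Its relative Hnf4g had 264 TPM in the intestine and 0.995 TPM in the liver (log2 fold change -7.37, SE 0.58, edgeR adjusted p = 1.40e-06). Nr1h4, the bile acid receptor, did not pass between the organs (log2 fold change 0.57, SE 0.75, edgeR adjusted p = 0.579) but was lower in intestine replicate 2 (log2 fold change -2.98, SE 0.27, edgeR adjusted p = 0.0238). Without spleen WT replicate 2, the counts of the lists against the spleen moved by at most 1 gene in a direction.

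The effect of Nsun6-KO was tested within each tissue, and 0 members were called in any tissue by edgeR, DESeq2 or limma. In simulated counts with each tissue's spread, the edgeR test found 1% of the 4-fold changes put in for the small intestine and 25% for the kidney. It found 75% for the liver, 62% for the spleen and 67% for the heart. The absence of calls in the small intestine therefore cannot show that no member changed there. edgeR called 0.0509% of all genes in the liver (8 of 15729), 0.223% in the spleen (42 of 18834) and 0% in the small intestine, kidney and heart. At an unadjusted p under 0.05, edgeR listed 1 of 10 members tested in the liver, 1 of 8 in the kidney and 0 in the small intestine and spleen. In the same order of tissues DESeq2 listed 3, 1, 0 and 0, and limma 0, 1, 0 and 0. Of all genes, edgeR listed 4.7%, 0.638%, 2.39% and 5.14% at that level in the same order. No share of all genes is given for DESeq2 and limma, so nothing is read from their counts. In the heart 5 members passed the low-count filter. There edgeR and DESeq2 each listed 2 at that level and limma 1, and edgeR listed 0.703% of all genes. The 2 that edgeR listed, Apoa1 and Apob, had passed the filter through the WT libraries alone, which favours a difference, so nothing is read from this count. No gene of the other lists was called in any tissue by edgeR.
In the liver all 10 members had a log2 fold change above 0, with a median of 0.38 against 0.0048 for all genes. That count depends on the scaling, since Apoa2, Apoc1 and Apoc2 were below 0 on total counts and Apoa2 and Apoc1 with limma. Apoa4 had the highest, with 25.1 and 49.1 CPM in WT and 72.7 and 70.7 CPM in KO (log2 0.95, SE 0.302, edgeR unadjusted p = 0.0142, adjusted p = 0.948). The genotypes also did not overlap for Apoa5, Apoc3 and Apoe, with KO above WT, which held for 17.1% of all genes, and Apoe had 0.64 (SE 0.41) and Apoa5 0.600 (SE 0.32). In TPM the genotypes overlapped for Apoc3. WT replicate 1, the library with the lowest hepatocyte sum and median marker, was the lowest of the 4 libraries for 8 of the 10 genes in CPM and for 6 in TPM. Apoc1 and Apoc2 were highest in this library on both scales, and in TPM Apoa2 and Apoc3 were further exceptions. Leaving this library out, the values of Apoa1, Apoa2 and Apob fell below 0 (-0.13, -0.041 and -0.091) and Apoa4 was at 0.52. With it as the only WT library, Apoc1 and Apoc2 were below 0 (-0.25 and -0.14) and Apoa1, Apoa4, Apoa5 and Apoe were called higher in KO (1.27, 1.53, 1.15 and 1.32), where 0.912% of all genes were.
In the small intestine Apoa4 was higher in KO than in WT within each replicate number, yet its log2 fold change of 1.14 had an SE of 2.23. Apoc3 (1.42, SE 1.94), Apoa1 (0.68, SE 0.85) and Apob (0.25, SE 0.67) were likewise higher in KO within each number, and none passed. These are 4 of the 9 members tested, and 30.4% of all genes tested were higher in KO within both numbers. Apoe was lower in KO in replicate 1 and higher in replicate 2 (0.22, SE 0.69).
In the spleen the values of Apoa1, Apoa2 and Apob were -3.56 (SE 2.798), -3.58 (SE 3.05) and -3.34 (SE 2.79). Without WT replicate 2 they turned to 2.56, 3.68 and 2.85, and 4 members were called higher in KO, with WT replicate 1 as the only WT library, where 1.32% of all genes were. With WT replicate 2 as the only WT library, 7 were called lower, where 1.51% of all genes were. Apoe had -0.24 (SE 0.17), with both KO libraries below both WT libraries, as held for 16.9% of all genes, and did not pass (edgeR adjusted p = 1).
In the kidney Apob had 0.32 (SE 0.43), Apom 0.080 (SE 0.47) and Apoe -0.013 (SE 0.52), with genotypes that overlapped in CPM, though in TPM both KO libraries were above both WT libraries for Apob. Apoc1 stood at 3.51 and 10.5 CPM in WT and 2.22 and 2.1 CPM in KO (log2 -1.71, SE 0.64, edgeR unadjusted p = 0.0414, adjusted p = 1), the 1 kidney gene of the set whose genotypes did not overlap in CPM, where 9.3% of all genes had both KO libraries below both WT libraries. Without WT replicate 1, Apoa1, Apoa2 and Apoc1 were called lower in KO (-1.61, -1.103 and -2.28), where 1.81% of all genes were and 14.3% were called higher. The 1 WT library of that fit, WT replicate 2, had the highest hepatocyte sum of the kidney and the fewest counts of the tubule markers Slc34a1 and Slc12a3. The part of either in these values was not tested.
In the heart Apoe had -0.15 (SE 0.302). Apoa1 read 10 and 45 counts in WT and 0 and 6 counts in KO heart, and Apob read 11 and 53 counts in WT and 4 and 4 counts in KO. For each gene the KO libraries were lower than either WT library, but since both passed the filter through WT alone, these counts are a description with no test. Both were highest in WT replicate 2, the heart library with the most adipocyte, atrial, B cell and hepatocyte marker TPM (119 TPM for the last), whose part was not tested.
A test of whether the genotype effect differed among tissues called 0 of 10 members and 0% of 23159 genes with edgeR. At an unadjusted p under 0.05 it listed 0 members and 535 genes, and DESeq2 was not run for it. With no filter on low counts, a setting added after seeing the data, it called 7 members and 2.66% of 36620 genes.

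**Figure D5:**
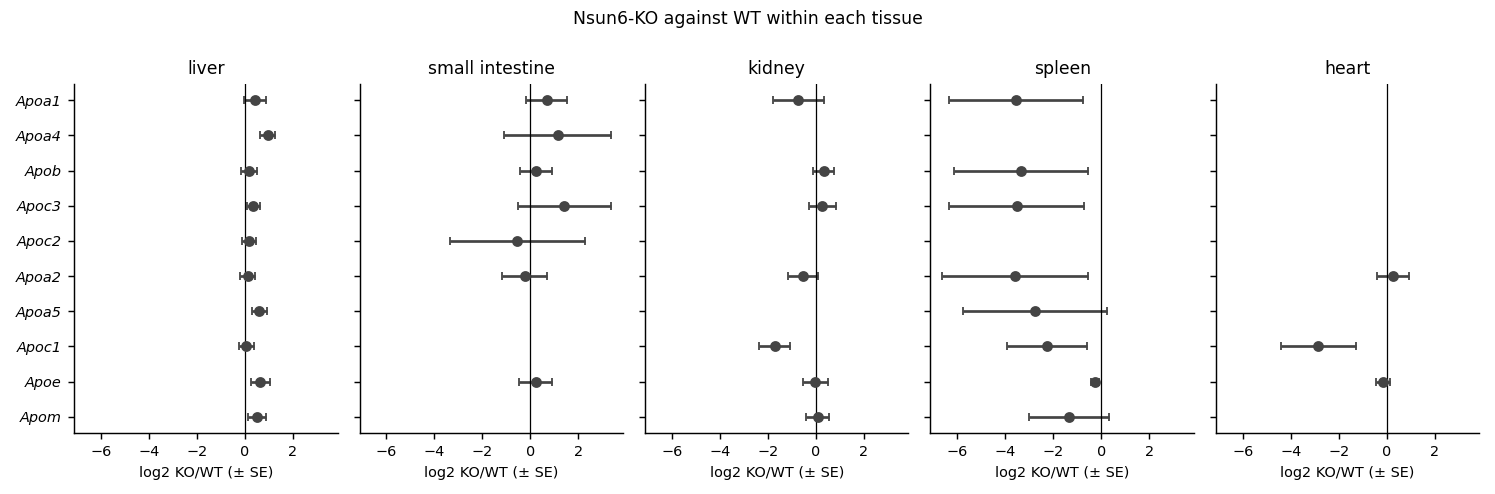
Log2 fold change of Nsun6-KO over WT from edgeR within each tissue, with a standard error derived from its F statistic, for members with a mean of at least 1 CPM there. Liver values lie between 0.060 and 0.95, the spleen values other than Apoe have SEs of 1.66 or more, and no value was called.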

How the data were processed

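Per the file headers and the study's methods, the authors trimmed reads with cutadapt, mapped them to mm10 with HISAT2 2.1.0 and counted them over the exons of each gene with featureCounts 2.0.1 on Ensembl GRCm38.102, and the deposited values are raw counts per gene and library. The deposited column of merged exon length gave TPM. The counting command in the header sets no strand or read pair option although the methods name both, so sense and antisense reads may not be separated. Replicates were not pooled, and no column was without a sample.
The members and lists were chosen with earlier results of these data known. Tissues were compared in 1 fit of all 20 libraries with genotype-by-tissue groups and genotypes within each tissue, using edgeR 4.0.16 (TMM, filterByExpr, robust quasi-likelihood test, R 4.3.3) with Benjamini-Hochberg adjustment over all genes tested and a call at an adjusted p below 0.1 with a fold above 2. All 10 members are named, with genes among the 3 of highest mean TPM in each pathway list and, for likeness, genes among the 3 with the highest r (log2 CPM, prior count 2). Some genes that this rule names are not reported here. Marker lists are given as summed TPM. Alternatives were DESeq2 1.42.0, limma 3.58.1 on log2(TPM + 0.1) for genes with TPM over 1 in a library, RLE or total-count scaling, no filter or at least 10 counts in every library of a group, other thresholds, the 2 tissues alone, 1 fit for genotypes, a replicate block and each library left out. Scripts were tested on simulated data.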

Additional observations from a re-analysis of the deposited data

How the results depend on the processing

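Log2 fold changes of the members in liver against the other tissues were mostly stable. Their direction and side of the threshold were kept by 313 of 320 values under other settings and by 309 of 320 with 1 library left out. When 1 library was left out, the count of members lower in liver than in small intestine ran from 0 to 1, that of members higher in KO from 0 to 4 in the liver and 0 to 4 in the spleen, and that of members lower in KO from 0 to 7 in the spleen and 0 to 3 in the kidney. A lone library of a genotype is then assumed to vary like the others. With limma on log2(TPM + 0.1), 0 members were higher in intestine replicate 2, a count given with no share of all genes, so nothing is read from it. With no filter on low counts 7 members differed in the test across tissues, where 2.66% of all genes did, a setting added after seeing the data. The cause of these changes was not tested.
Scaling by total counts moved the median of all genes by -0.56, -0.79, -1.16 and -0.51 for liver against small intestine, kidney, spleen and heart, by -0.23 for intestine replicates and by -0.14 for KO in the liver. It turned Apoa1 in liver against intestine to -0.202 (limma -0.25), and for KO in the liver Apoa2 to -0.0042 (limma -0.064), Apoc1 to -0.12 (limma -0.087) and Apoc2 to -0.012. For KO in the kidney, Apoe turned to 0.090 (limma 0.12, 1 fit of all libraries 0.0069) and Apoa1 to 0.099 with limma.
With 1 library left out, these values changed sign. Liver against small intestine: Apoa1 -0.086 to 0.67. Intestine replicate 2 against 1: Apoa2 -0.055 to 2.59 and Apoe -0.21 to 1.996. KO in the small intestine: Apoa1 -0.028 to 1.37, Apoa4 -3.65 to 5.48, Apob -0.15 to 0.61, Apoc3 -2.45 to 4.87, Apoe -1.12 to 0.905. These intestine fits left the genotypes with unequal shares of replicate numbers and had no term for the number. The part of gut position in these sign changes was not tested. Apoa1, Apoa4, Apob and Apoc3 were higher in KO within both numbers, as were 30.4% of all genes tested. KO in the liver: Apoa1 -0.13 to 1.27, Apoa2 -0.041 to 0.29, Apob -0.091 to 0.53, Apoc1 -0.25 to 0.45, Apoc2 -0.14 to 0.57. KO in the spleen: Apoa1 -4.55 to 2.56, Apoa2 -4.58 to 3.68, Apob -4.34 to 2.85. KO in the kidney: Apoa1 -1.61 to 1.85, Apoa2 -1.103 to 0.48, Apob -0.082 to 0.91, Apoe -0.500 to 0.75, Apom -0.42 to 0.87. KO in the heart: Apoe -0.26 to 0.0061.
Same-numbered WT and KO libraries deviated together in the small intestine (r = 0.481) and heart (r = 0.248), with r from 0.0121 to 0.0730 in the other tissues, and the labels give the numbers no shared source. The depth limits what can be said of the members with few counts, such as Apoc2 outside liver and intestine and Apoa5 outside the liver, and with 2 libraries per genotype the p-values rest on few degrees of freedom. With the replicate number as a block, 0 members were called KO against WT in every tissue and Apom passed between liver and kidney (1.32, edgeR adjusted p = 0.0457). The block turned the KO value of Apoe to -0.089 in the small intestine and 0.089 in the kidney, and of Apoa1 to 0.034 in the kidney.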
